A study of Mus musculus with 8 samples.

Results

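A set of 10 genes for epithelial contacts and the epithelial cytoskeleton was followed by name through the count table of a Klf4 knockdown in alphaTC6 cells, a mouse line derived from alpha cells, which make glucagon in the pancreatic islet. They were the cadherins Cdh1 and Cdh2, the surface protein gene Epcam, the keratins Krt7, Krt8, Krt18 and Krt19, and the claudins Cldn3, Cldn4 and Cldn7. All 10 were found, each once, among 55536 genes. The transcription factor KLF4 is known to regulate genes of these types in other epithelia, and the series concerns its part in alpha cell identity. Cells of wild-type genotype were reverse transfected with a lipid reagent for 48 h, with a control siRNA (scramble) or with pooled siRNAs (small interfering RNAs) that target Klf4. Poly(A) RNA gave 4 libraries per treatment. The labels also give a batch, without saying what it stands for: the first comprises scramble replicates 1 and 2 with Klf4 siRNA replicates 1, 2 and 4, the other scramble replicates 3 and 4 with Klf4 siRNA replicate 3. All libraries come from 1 cell line, and the labels call them biological replicates without saying what separates them, so the p-values below measure the spread between these libraries.

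Cadherins are calcium-dependent adhesion proteins that bind their like on neighbouring cells and hold the actin cytoskeleton through catenins. E-cadherin (Cdh1) is the classical epithelial cadherin, N-cadherin (Cdh2) is abundant in neural and endocrine cells, and islet cells in the animal are known to carry both. Type I keratins (Krt18, Krt19) pair with type II keratins (Krt7, Krt8) to form intermediate filaments, and Krt7 and Krt19 are familiar markers of pancreatic ducts. Claudins are the membrane proteins that seal tight junctions, and EpCAM is an epithelial adhesion protein known to bind Cldn7.

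Library totals ran from 45954151 to 64185987 counts. Klf4 itself had 1652 to 2964 counts in scramble libraries and 615 to 1041 in Klf4 siRNA libraries (log2 fold change -1.33 ± 0.17 SE, edgeR quasi-likelihood test with Benjamini-Hochberg adjusted p = 0.0083). That adjusted p was 0.052 without scramble replicate 1 and 0.104 in batch 1 alone, where the log2 changes were -1.27 and -1.39. Of 12 alpha cell markers, 11 had enough counts to be tested, and Gc had at most 4 counts in any library. Ins1 and Ins2, the insulin genes, were at 0. Changes are given for the 16333 genes that passed a filter on low counts. Of these, 11.7% passed an adjusted p of 0.05 between treatments (4.88% higher and 6.81% lower after Klf4 siRNA) and 32.7% between batches. Of the 11 alpha cell markers tested, 0 passed as higher and 5 as lower after Klf4 siRNA, and 7 differed between batches.

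The 10 genes fell into 3 classes of abundance. Cdh2 was abundant, with 9733 to 13592 counts per library. Krt7 was scarce but measurable, with 155 to 250 counts. The other 8, among them Cdh1 and Epcam, had at most 4 counts in any library and were not tested. A share of 42.4% of the 22028 protein-coding genes in the table also did not pass the filter, and 35.3% had at most 4 counts in every library. In this bulk RNA, fewer cells carrying a transcript and less of it per cell cannot be told apart.

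**Figure D1:**
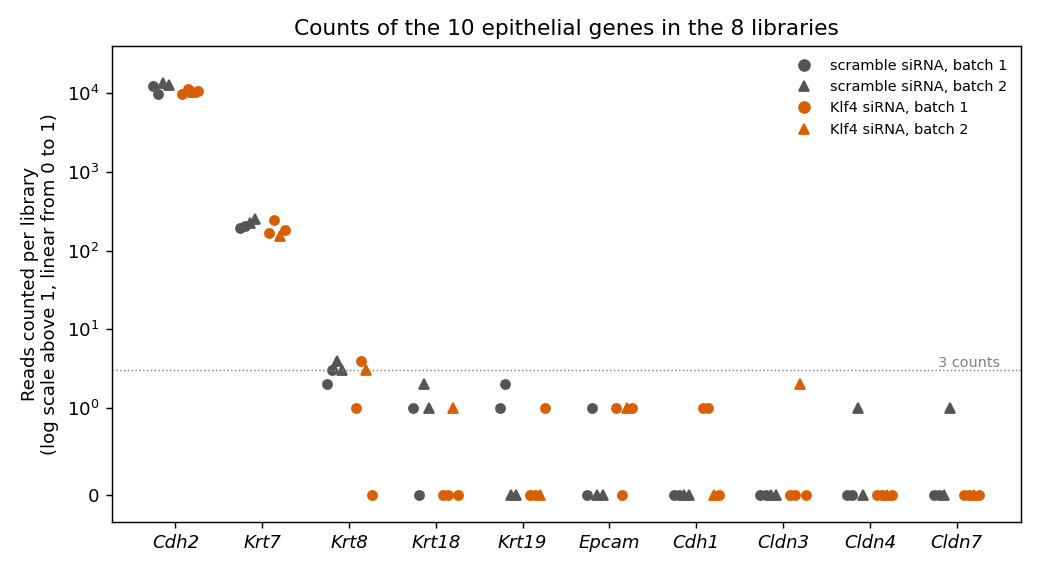
Reads counted for each of the 10 genes in each library (vertical axis, log scale above 1 and linear from 0 to 1); circles are batch 1, triangles batch 2, grey scramble and orange Klf4 siRNA. Cdh2 lies at 9733 to 13592 counts and Krt7 at 155 to 250, whereas the other 8 genes lie at 4 counts or below in all 8 libraries.

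Cdh2 (ENSMUSG00000024304, chromosome 18, positions 16588877 to 16809246 of GRCm38, minus strand) was lower after Klf4 siRNA. Its level was 219.3, 211.0, 212.1 and 218.4 CPM (counts-per-million, on the TMM-scaled library size) in scramble replicates 1 to 4. It was 197.6, 196.6, 195.1 and 199.1 CPM in Klf4 siRNA replicates 1 to 4. Every Klf4 siRNA library lay below every scramble library, in both batches, and the knockdown values lay closer together than the scramble values. Levels of the treatments do not overlap for 10.5% of all tested genes. The means were 215.2 ± 4.26 and 197.1 ± 1.67 CPM (SD, n = 4 each). Cdh2 thus fell to 91.5% of its scramble level (log2 fold change -0.13 ± 0.03 SE, edgeR adjusted p = 0.0024).

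The fall of Cdh2 was small beside that of Klf4 and larger than the median absolute change of 0.077 over all tested genes. It was -0.12 within batch 1 and -0.14 within batch 2, on the log2 scale. Batch 2 holds only 1 Klf4 siRNA library, so whether the change differs between batches could hardly be tested (edgeR interaction, unadjusted p = 0.731). Over all 17 alternative settings the log2 change stayed between -0.15 and -0.12, with adjusted p-values from 0.00025 to 0.041. The highest came without scramble replicate 1. An antisense annotation, Gm15485, lies within the Cdh2 span but shares none of its exon bases.

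Krt7 (ENSMUSG00000023039, chromosome 15, 101411043 to 101430313, plus strand) was the only keratin of the set with a measurable level. Its level was 3.46, 4.33, 3.51 and 4.32 CPM in scramble replicates 1 to 4. In Klf4 siRNA replicates 1 to 4 it was 3.43, 4.22, 2.94 and 3.47 CPM. The treatments overlapped, and the lowest value belonged to the only Klf4 siRNA library of batch 2. The means were 3.90 ± 0.49 and 3.52 ± 0.53 CPM (SD, n = 4 each). The log2 fold change was -0.18 ± 0.11 (SE, edgeR adjusted p = 0.376), so a difference between treatments was not detected beyond the spread between libraries. Within 1 standard error the estimate spans 81.6% to 95.6% of the control level, a range that holds the relative fall of Cdh2. In batch 1 the log2 change was -0.07 and in batch 2 -0.40, the latter from 1 Klf4 siRNA library, which leaves hardly a test of the difference (edgeR interaction, unadjusted p = 0.152). With a library left out the estimate ran from -0.31 (without scramble replicate 1) to -0.06 (without Klf4 siRNA replicate 3), and it passed the threshold in none of these fits (adjusted p = 0.158 to 0.873). Of the words of 50 bases in annotated Krt7 transcripts, 0.916% also occur in transcripts of other genes, and 77 exon bases are shared with the antisense annotation Gm671.

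**Figure D2:**
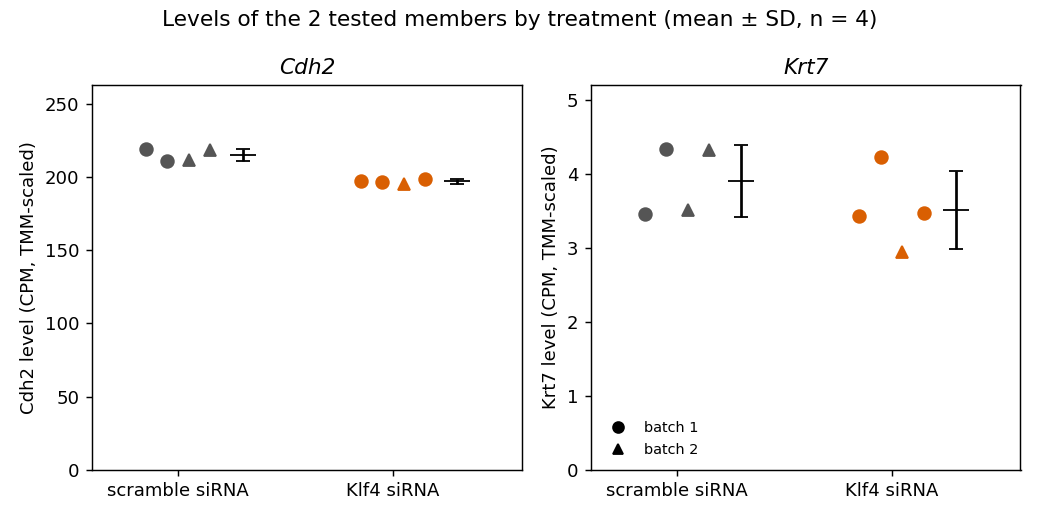
Level in CPM (vertical axes from 0) of Cdh2 and Krt7 in each library by treatment; circles are batch 1, triangles batch 2, and black bars give the mean ± SD of 4 libraries. The Klf4 siRNA libraries lie at 195.1 to 199.1 CPM for Cdh2, below all scramble libraries, whereas the treatments overlap for Krt7.

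Of the 2 genes tested, 1 therefore passed the threshold, against 11.7% of all tested genes, and 2 genes are too few to set a share beside that. Without a filter all 10 genes entered the fit, and Cdh2 was still the 1 that passed.

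The other 3 keratins, typical of simple epithelia, were nearly absent. Krt8 (chromosome 15, 101996698 to 102004482), the main type II keratin of simple epithelia, had 2, 3, 4 and 3 counts in the scramble libraries, by replicate number, and 1, 4, 3 and 0 after Klf4 siRNA. Krt18 (chromosome 15, 102028180 to 102032027), the type I partner of Krt8, had 1, 0, 2 and 1 counts in scramble libraries and 0, 0, 1 and 0 in Klf4 siRNA libraries. Krt19 (chromosome 11, 100140810 to 100148665), the smallest type I keratin, had 1, 2, 0 and 0 counts and 0, 0, 0 and 1. Apart from 4 counts of Krt8 in 1 library of each treatment, these values lie at or below the limit of 3 counts that a count of 0 allows, which is 0.065 CPM in the smallest library. No fold change is given for them.

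Pooled over the 438232869 counts of all libraries, Krt8 stood at 0.0456 CPM, with a 95% exact Clopper-Pearson interval of 0.0279 to 0.0705. Such intervals cover counting error only. The interval for Krt18 was 0.0037 to 0.0266 and for Krt19 0.0025 to 0.0234. Of the words of 50 bases in Krt8 transcripts, 29.7% also occur in its annotated pseudogene Krt8-ps or in the overlapping Gm36026. Reads from that part could have been assigned elsewhere or left out, and the Krt8 count is uncertain to that extent. Krt8-ps itself had 8 counts in all. The same share was 0.72% for Krt18 and 0 for Krt19.

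E-cadherin and EpCAM, the usual surface markers of epithelia, were also nearly absent, with intervals below that of Krt8. Cdh1 (ENSMUSG00000000303, chromosome 8, 106603351 to 106670246) had 1 count in each of Klf4 siRNA replicates 1 and 2 and 0 in the other 6 libraries. Its interval, 0.00055 to 0.0165 CPM, allows at most 0.0036 CPM per kilobase of exon. Epcam (chromosome 17, 87635979 to 87651129) had 1 count in scramble replicate 2 and in Klf4 siRNA replicates 1, 3 and 4, and 0 in the other 4 libraries. None of the words of 50 bases in the transcripts of either gene occurs in another annotated gene.

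The 3 claudins had 1 or 2 reads each over all libraries. Cldn3 (chromosome 5, 134986214 to 134987472) had 2 counts in Klf4 siRNA replicate 3 and 0 in the other 7 libraries. Cldn4 (chromosome 5, 134945119 to 134946934) had 1 count, in scramble replicate 3. Cldn7 (chromosome 11, 69964779 to 69967885) had 1 count, in scramble replicate 4. Each of the latter is limited to 0.0127 CPM by the interval. Over the 8 untested genes, 39 counts were found in all, 22 in scramble and 17 in Klf4 siRNA libraries, 20 in batch 1 and 19 in batch 2. Reads of these genes were thus scarce under both treatments and in both batches.

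The stretches before the starts of Krt7, which could be tested, and of Epcam, Cldn3 and Cldn4, which could not, are shown because KLF proteins are known to bind words of the CACCC type. Each line gives the 250 bases before the gene start in RefSeq (GRCm38.p6), 5′ to 3′ on the gene's strand, at chr15:101412153-101412402 (plus strand), chr17:87635729-87635978 (plus), chr5:134985964-134986213 (plus) and chr5:134946935-134947184 (minus). Capitals mark matches, on either strand, to the word CACCC, read as GGGTG on the other strand, and to the word GGGNGTGG.
Krt7: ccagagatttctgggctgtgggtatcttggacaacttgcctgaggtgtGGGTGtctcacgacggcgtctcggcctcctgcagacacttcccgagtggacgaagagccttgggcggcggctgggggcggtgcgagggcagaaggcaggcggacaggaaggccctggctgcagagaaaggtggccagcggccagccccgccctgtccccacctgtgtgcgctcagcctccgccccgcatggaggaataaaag
Epcam: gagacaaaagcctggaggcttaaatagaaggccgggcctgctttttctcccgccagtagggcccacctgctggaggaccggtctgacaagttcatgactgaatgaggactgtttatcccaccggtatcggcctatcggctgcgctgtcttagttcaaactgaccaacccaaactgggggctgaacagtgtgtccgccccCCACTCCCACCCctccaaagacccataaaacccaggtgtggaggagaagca
Cldn3: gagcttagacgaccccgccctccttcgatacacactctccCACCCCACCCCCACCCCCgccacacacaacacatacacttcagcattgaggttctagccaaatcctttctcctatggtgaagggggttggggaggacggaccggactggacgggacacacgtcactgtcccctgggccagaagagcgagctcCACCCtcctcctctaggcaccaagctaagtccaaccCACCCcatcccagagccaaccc
Cldn4: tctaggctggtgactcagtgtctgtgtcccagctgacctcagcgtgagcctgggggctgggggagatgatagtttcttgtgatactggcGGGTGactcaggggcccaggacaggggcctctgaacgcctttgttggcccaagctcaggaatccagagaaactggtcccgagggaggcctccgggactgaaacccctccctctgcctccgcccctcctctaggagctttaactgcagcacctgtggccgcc
RefSeq promoter entries were found for 7 of the 10 genes, with 2 entries for Cldn7. At least 1 CACCC match lay in these windows for each of these 7 genes, with 1 for Krt7, 2 for Krt8, 1 for Krt18, 1 for Epcam, 1 for Cldn4, 5 for Cldn3 and 1 in 1 of the Cldn7 entries. So short a word is common, and 52.0% of all 32851 promoter entries hold it in the same 250 bases. The bases G and C made up 51.2% to 66.0% of the windows of the 7 genes, beside a median of 52.4% over all entries. The shares of matches were not adjusted for this. The longer word GGGNGTGG, which contains GGGTG where its N is T or G, was found for Krt18 (2), Epcam (1) and Cldn3 (2), against 15.9% of all entries. Krt7, the measurable keratin of the set, had no match to it. With the 50 bases after the start included, the shares of all entries were 57.5% and 17.6%. The windows follow RefSeq starts, and some lie partly inside the GENCODE gene models whose positions are given above. The Krt7 window lies wholly inside its model, with 162 bases in annotated exons, the Krt8 window by 140 bases, the Krt18 window by 36 and 1 of the Cldn7 windows wholly, whereas those of Epcam, Cldn3 and Cldn4 lie outside.

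Levels were next compared within the gene families, per kilobase of annotated exon (RPKM). Cdh2 was the most abundant of 23 cadherins named Cdh with a number, at 25.6 ± 1.25 RPKM (SD over 8 libraries), above 86.5% of all tested genes. Cdh11, a cadherin best known from mesenchymal cells, followed at 7.91 ± 3.21 RPKM and Cdh18 at 6.33 ± 0.97. The order of the latter differed by batch: in batch 1 Cdh11 had 10.2 ± 0.41 and Cdh18 5.64 ± 0.19 RPKM (SD, n = 5), and in batch 2 they had 4.05 ± 0.035 and 7.49 ± 0.073 RPKM (SD, n = 3). Cdh2 lay far above both in either batch, at 25.4 ± 1.24 and 25.9 ± 1.49 RPKM. Of the summed RPKM of the 23 cadherins, Cdh2 took 49.1%, 47.5%, 52.2% and 52.55% with scramble, by replicate number, and 47.5%, 46.2%, 50.6% and 47.2% with Klf4 siRNA. Batch 2 libraries were highest in both treatments. Cdh1 took at most 0.0086%.

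Among 54 keratins, 4 were tested, and Krt7 ranked 3 at 0.526 ± 0.073 RPKM, above 21% of all tested genes. Krt10 was higher at 3.36 ± 0.30 RPKM, and Krt222 stood at 0.650 ± 0.082, so that the ranges of 1 SD around Krt222 and Krt7 overlapped. Annotated Krt7 exons add up to 7049 bases, more than its principal transcript of 4094 bases, and with the latter length Krt7 ranked 2. Of 33 claudins, 4 were tested and none was Cldn3, Cldn4 or Cldn7. Cldn12 led at 7.40 ± 0.76 RPKM, before Cldn1 at 2.13 ± 0.23.

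**Figure D3:**
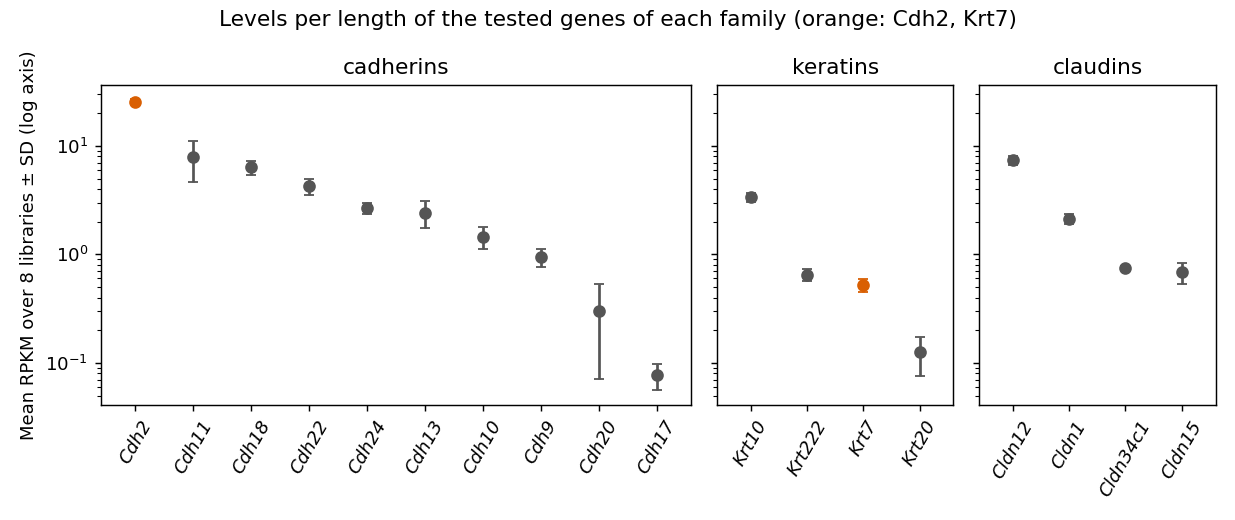
Mean RPKM over 8 libraries ± SD (log axis) of the cadherins, keratins and claudins that passed the filter on low counts, in order of level, with Cdh2 and Krt7 in orange. Cdh2 leads the cadherins at 25.6 RPKM, Krt7 ranks 3 of 4 keratins, and the claudins Cldn3, Cldn4 and Cldn7 are not among those tested.

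Between batches, neither Cdh2 nor Krt7 differed detectably. Cdh2 had 204.7 ± 9.99 CPM in batch 1 (SD, n = 5) and 208.5 ± 12.0 CPM in batch 2 (SD, n = 3); the batches hold unequal shares of knockdown libraries. With treatment in the fit, the log2 difference was -0.008 ± 0.027 (SE, edgeR adjusted p = 0.860). Krt7 had 3.78 ± 0.45 and 3.59 ± 0.69 CPM, and the log2 difference was -0.13 ± 0.12 (SE, edgeR adjusted p = 0.456). Of these 2 genes, 0 passed at an adjusted or an unadjusted p of 0.05 with edgeR, and 0 passed with DESeq2 or limma-voom, against the 32.7% of all genes that did with edgeR. Of the 9 other cadherins tested, 4 were higher and 4 lower in batch 2. Cdh11 had 91.0 ± 3.65 CPM in batch 1 and 36.1 ± 0.31 CPM in batch 2 (SD, n = 5 and 3), a log2 difference of -1.32 (edgeR adjusted p = 2.65e-16). For Cdh10 the log2 difference was -0.66 and for Cdh13 0.72 (edgeR adjusted p = 9.66e-08 and 5.73e-11).

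The genes around the 10 were read from lists chosen with earlier results of these data known. Of 8 lists of junction, keratin, epithelial and mesenchymal genes, 49 genes outside the 10 were tested, and 8 passed the threshold for treatment, 4 higher and 4 lower, beside 11.7% of all tested genes (4.88% higher, 6.81% lower). The lists are described gene by gene, and nothing is read from this count. Of the 4 tested claudins, 2 rose and 0 fell. Cldn1, a sealing claudin, rose from 9.30 ± 0.45 to 11.3 ± 0.18 CPM (SD, n = 4 each; log2 fold change 0.29 ± 0.06 SE, edgeR adjusted p = 0.0029). Cldn12, a claudin that lacks the usual scaffold-binding tail, rose from 28.4 ± 0.46 to 34.2 ± 1.36 CPM (log2 fold change 0.26 ± 0.04 SE, edgeR adjusted p = 0.00016). Cldn15 and Cldn34c1, the latter in none of the lists, had log2 changes of 0.11 ± 0.14 and -0.02 ± 0.08 (SE, edgeR adjusted p = 0.731 and 0.924). The median log2 change of the 4 was 0.18, beside 0.000043 over all tested genes. Cldn1 and Cldn12 passed under all 17 alternatives.

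Of the 9 tested cadherins other than Cdh2, 0 rose and 1 fell. Cdh22, a cadherin of brain, had a log2 change of -0.30 ± 0.05 (SE, edgeR adjusted p = 0.00077), and the median log2 change of the 9 was -0.019. Its adjusted p was 0.579 without the batch term (log2 change -0.20) and 0.277 with a replicate block. Of 11 tested catenins and adherens junction partners, 2 rose and 2 fell (median -0.039). Jup, which encodes plakoglobin, a catenin of adherens junctions and desmosomes, had a log2 change of -0.22 ± 0.04 (SE, edgeR adjusted p = 0.00076). Its log2 change was -0.14 both without the batch term and with a replicate block (adjusted p = 0.565 and 0.197). Ctnna1, which encodes the alpha-catenin that ties cadherins to actin, had a log2 change of -0.28 ± 0.07 (SE, edgeR adjusted p = 0.018). That call was lost under 6 of 17 alternatives, among them the fits that left out scramble library 2, scramble library 3 or knockdown library 3 (adjusted p = 0.091, 0.068 and 0.248). Its log2 change was -1.03 without the batch term (edgeR adjusted p = 0.742). Vcl (vinculin) and Afdn (afadin), both actin linkers, had log2 changes of 0.13 and 0.09 (edgeR adjusted p = 0.024 and 0.037). They were lost under 6 and 10 of 17 alternatives, with adjusted p-values of up to 0.166 and 0.233. Exons of Ctnna1, Vcl and Afdn overlap genes on the opposite strand by 95, 2090 and 221 bases. Ctnnb1, which encodes beta-catenin, the direct partner of cadherins, had a log2 change of -0.03 ± 0.03 (SE, edgeR adjusted p = 0.571). It ran from -0.05 to -0.004 with a library left out, at the ends without scramble library 2 and without knockdown library 3.

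Among 3 tested desmosome and plakin genes, 1 fell (median -0.083). Pkp4, an armadillo protein that binds cadherins, went from 229.5 ± 11.9 to 192.8 ± 10.8 CPM (SD, n = 4 each). Its log2 change was -0.22 ± 0.03 (SE, edgeR adjusted p = 9.77e-06), and it passed under all 17 alternatives. Of the 14 desmosome genes, 7 had at most 4 counts in any library. Of 9 tested tight junction scaffold and polarity genes, 0 passed with edgeR, DESeq2 or limma-voom and 1 had an unadjusted p under 0.05 (median -0.074). Tjp1, the scaffold ZO-1, had a log2 change of -0.07 ± 0.04 (SE, edgeR adjusted p = 0.246). It ran from -0.09 to -0.04 with a library left out, the latter without knockdown library 4. Ocln (occludin) was not tested, with at most 11 counts in a library.

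**Figure D4:**
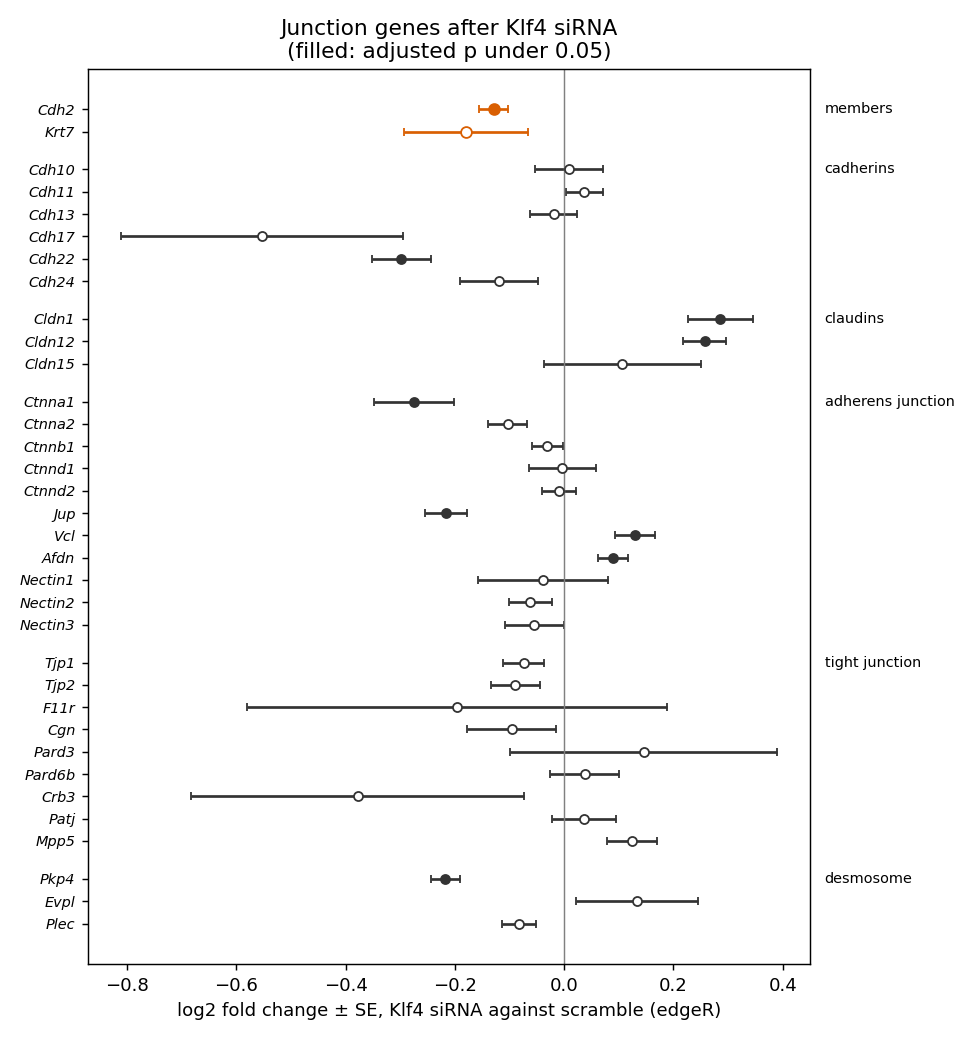
Log2 fold change ± SE after Klf4 siRNA (horizontal axis) of Cdh2 and Krt7 (orange) and of the tested genes of the cadherin, claudin, adherens junction, tight junction and desmosome lists, with filled points for an adjusted p under 0.05. Among the filled points, Cdh2 lies at -0.13, Cdh22, Jup, Ctnna1 and Pkp4 also lie below 0, and Cldn1, Cldn12, Vcl and Afdn above 0.

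Other epithelial and mesenchymal genes gave no call for treatment. Of the 17 epithelial regulators and surface genes, 5 were tested, 9 had at most 4 counts in every library, and 0 passed with edgeR, DESeq2 or limma-voom, with 1 at an unadjusted p under 0.05 (median 0.0058). Of the 16 mesenchymal genes, 9 were tested and 0 passed with any of the 3 tools, with 1 at an unadjusted p under 0.05 (median -0.054). Vim and Fn1, which encode vimentin and fibronectin, had at most 17 and 6 counts in a library and were not tested. Of the other keratins, 3 of 14 were tested, and 0 passed with any of the tools or at an unadjusted p under 0.05 (median 0.029). Of the 8 duct cell markers, a list that includes Krt7 and Krt19, 5 were tested, 0 passed between treatments with any of the tools and 1 had an unadjusted p under 0.05, whereas 3 were higher in batch 2, beside 16.8% of all tested genes. Their summed level was 7.47 to 14.2 CPM with scramble and 6.88 to 10.6 CPM with Klf4 siRNA, and Cftr and Onecut1 were at 0 in all libraries.

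Over the 8 libraries, the genes with a profile most like that of Cdh2 were Ush1g and Cnot8 (Pearson's r = 0.985 of log2 CPM for both). For Krt7 it was Adal (r = 0.929). Such r values were the highest among 12721 genes with at least 1 CPM on average. These are descriptions over 8 libraries that share treatment and batch.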

How the data were processed

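The deposited table holds whole-number counts per gene for 8 libraries, not normalized, per the file headers and values. Reads were trimmed with cutadapt, per the table's name. FastQC, STAR, featureCounts, DESeq2 and the build mm10 are named, without settings, in the submitters' processing notes, and the use of strand was not given in the sources used here. RNA extraction is described for islets in the protocol, but the samples carry the cell line as their label. All 55536 gene identifiers matched GENCODE release M21 (GRCm38), which gave positions and exon lengths, and 0 columns were left unmapped.

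Groups and batches follow the labels. Genes were kept with filterByExpr, scaled with TMM and fitted with a robust quasi-likelihood model of batch and treatment (edgeR 4.0.16, R 4.3.3), with 5 residual degrees of freedom and p-values (two-sided) that were Benjamini-Hochberg adjusted across the tested genes, with a threshold of 0.05. The test across genes was tested on simulated data. The standard error (SE) of a change is its size divided by the root of the F statistic. Within-batch changes are differences of mean log2 CPM (prior count 2). RPKM uses the union of annotated exons. Members, lists and tests were chosen with earlier results of these data known. Besides the members and Klf4, at most 4 called genes per list with the smallest adjusted p were named. Vim, Fn1, Ctnnb1, Tjp1 and Ocln were also named, as were the gene or tied genes most like Cdh2 and Krt7. Other cadherins, keratins and claudins named for level or batch, and Cldn15 and Cldn34c1, were chosen after their values were seen. Alternatives were another scaling, filter, test (DESeq2 1.42.0, limma 3.58.1) or batch term, and each library left out.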

Additional observations from a re-analysis of the deposited data

Results flagged for a closer look

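Levels were examined for a library far from the other 3 of its treatment, by how much of the whole spread of the 4 lies between that library and the next. This share was past its critical value in 9 of 44 sets of 4 libraries. That value is set for about 1 in 20 by chance in continuous values from like libraries. The rate does not hold for counts near 0, nor in Klf4 siRNA libraries for genes that differ between batches, so the 9 are not set beside it. Of these, 7 concern untested genes of the set, where 1 or 2 reads against 0, or 0 against 1, make up nearly the whole spread. The share was 1.00 for Epcam in scramble replicate 2, for Krt18 and Cldn3 in Klf4 siRNA replicate 3, for Krt19 in Klf4 siRNA replicate 4, for Cldn4 in scramble replicate 3 and for Cldn7 in scramble replicate 4. Epcam in Klf4 siRNA replicate 2, at 0, had a share of 0.928.

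The other cases were both in Klf4 siRNA replicate 3, the only knockdown library of batch 2. Ctnna1 had 19.3 CPM there against 2.09 to 2.32 CPM in the other Klf4 siRNA libraries (share of 0.987). Jup had 23.6 CPM there against 29.0 to 29.8 CPM (share of 0.857). Both genes differed between batches with treatment in the fit (log2 difference of 3.16 for Ctnna1 and -0.29 for Jup, edgeR adjusted p = 1.80e-17 and 8.53e-06).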

How the results depend on the processing

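The fall of Cdh2 passed the threshold under all 17 alternatives, and Krt7 did not pass under any of the 16 that tested it; it was left out by the filter at a mean of 5 CPM. The number of genes called over the whole table was 1909 and became 409 without the batch term, 1232 in batch 1 alone and 934 to 2021 with a library left out, the lowest without scramble replicate 1 (934), scramble replicate 2 (1012) and Klf4 siRNA replicate 3 (1232). The 8 calls among the context lists became 3 without the batch term and 5 to 8 with a library left out, with 5 without scramble replicate 2. The treatments share replicate numbers, and a replicate block fitted instead of batch called 1220 genes, 3 of them in the context lists, while Cdh2 kept its call (adjusted p = 0.016). Deviations of same-numbered libraries correlated at 0.49, 0.42, 0.72 and -0.34 for numbers 1 to 4, and 5 of 8 libraries correlated best with their own number. With batch removed these were -0.00053, -0.040, -0.30 and 0.12. Since not every number had a correlation above 0.1, the numbers were not taken as pairs; Cdh22, Jup, Ctnna1, Vcl and Afdn lost their calls under the block. The batch difference of Cdh2 changed sign at a mean of at least 5 CPM (0.0033), in scramble libraries alone (0.0015) and with a library left out (-0.025 to 0.0017), and that of Krt7 in scramble libraries alone (0.012) and with a library left out (-0.24 to 0.011); none of these passed the threshold. With the length of the principal transcript, a setting added after the data were seen, the level of Cdh2 was 42.6 and that of Krt7 0.906 RPKM. The alternatives for the context genes and the interaction were also added then. The causes of these shifts were not tested. Depth leaves the 8 scarce genes with wide counting intervals; they were tested only in the fit without a filter, where none of them passed.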

Other observations

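Of the 6 genes of the Snai, Twist and Zeb families in the mesenchymal list, which are known as repressors of Cdh1 in other cells, 4 could be tested. They were chosen here after their values were seen. Zeb1, a zinc finger repressor of E-cadherin, stood at 75.4 ± 0.98 CPM with scramble and 70.4 ± 3.60 CPM with Klf4 siRNA (SD, n = 4 each; edgeR adjusted p = 0.069). Snai2 had 10.2 ± 0.65 and 10.7 ± 0.60 CPM and Zeb2 10.1 ± 0.86 and 10.1 ± 1.17 CPM, with edgeR adjusted p-values of 0.625 and 0.709. Twist2 was scarce, at 0.303 ± 0.204 and 0.256 ± 0.104 CPM (edgeR adjusted p = 0.83), and was higher in batch 2 (log2 difference of 1.41, edgeR adjusted p = 0.0011). Snai1 had at most 5 counts in a library and Twist1 was at 0 in all libraries, and neither was tested. Of the 4 tested, none passed between treatments with edgeR.

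Ctnna1, which links cadherins to actin, differed more between batches than between treatments. It had 2.36 ± 0.31 CPM in batch 1 (SD, n = 5) and 22.2 ± 2.58 CPM in batch 2 (SD, n = 3), a log2 difference of 3.16 that stayed between 3.10 and 3.21 under 15 alternatives.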
